A study of Mus musculus with 11 samples.

Results

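The genes described here are 10 subunits and receptors of the acetylcholine system of the mouse, 8 nicotinic subunits (Chrna3, Chrna4, Chrna5, Chrna6, Chrna7, Chrnb2, Chrnb3 and Chrnb4) and 2 muscarinic receptors (Chrm2 and Chrm3). They were taken by gene symbol, without a threshold on their values but with earlier results of these data known. They make up 10 of the 54752 gene identifiers counted. The 11 other nicotinic and muscarinic receptor genes, of which only Chrna1 had enough counts to be tested, are described further below. The data comprised 11 RNA-seq libraries of neurons from 3 sensory nuclei of the thalamus at postnatal day 0, 4 libraries of the dorsolateral geniculate nucleus (dLG, vision), 4 of the ventral posteromedial nucleus (VPM, which receives facial touch) and 3 of the ventral medial geniculate nucleus (MGv, hearing). All mice were ICR/CD-1, an outbred stock, and in all groups they carried Gbx2CreER-IRES-EGFP/+ and R26lsl-tdTomato/+. In these mice a tamoxifen-inducible Cre expressed from 1 allele of Gbx2, a thalamic transcription factor, turns on the red protein tdTomato in early postmitotic thalamic neurons, so that the neurons collected are limited to those labelled in this way and lack 1 normal Gbx2 allele. Tissue of 4 brains was pooled for each library, dissociated and sorted by red fluorescence. The p-values below therefore measure the spread between pools, and nothing in the labels ties a pool of one nucleus to a pool of another.

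Nicotinic receptors are pentameric cation channels opened by acetylcholine. Receptors of alpha4 and beta2 subunits are the common high-affinity form in the brain, alpha7 forms channels on its own, and alpha3 with beta4, often with alpha5, is best known from autonomic ganglia and the medial habenula. Muscarinic receptors are G protein-coupled: the receptor encoded by Chrm2 acts through Gi/o proteins and GIRK potassium channels, and that encoded by Chrm3 through Gq and phospholipase C. Cholinergic neurons of the brainstem innervate the sensory thalamus, where acetylcholine excites relay neurons through nicotinic channels and through the closing of potassium channels by muscarinic receptors.

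The libraries held 10.2 to 23.6 M counts, with all MGv libraries (10.2 to 13.2 M) below all dLG (15.9 to 22.7 M) and VPM libraries (18.9 to 23.6 M), and 3 counts, taken as the floor of detection, corresponded to 0.129 to 0.292 CPM (counts scaled by the size of each library with TMM). The sorted cells had the markers of their label, since the summed level of 9 pan-neuronal genes was 10922 to 15408 CPM and that of 5 thalamic genes 1730 to 2931 CPM. Among the latter, Gbx2 itself was 14.2 to 51.6 CPM in dLG and VPM and 272 to 333 CPM in MGv. Behind the pan-neuronal sum, single genes also differed between nuclei. Nefl was at 1222 to 1769 CPM in dLG, 1785 to 2413 CPM in VPM and 699 to 793 CPM in MGv. Rbfox3 was higher in MGv, at 227 to 285 CPM, against 129 to 179 CPM in dLG and 134 to 155 CPM in VPM. The part of such neuronal differences in the levels of the receptor genes was not tested. Markers of GABAergic and cortical neurons each summed to at most 5.19 CPM, those of astrocytes to 57.0 to 192 CPM. In 3 libraries, dLG replicate 2, VPM replicate 3 and MGv replicate 1, Hspa8, a constitutive heat shock protein, was at 3.05 to 5.56 CPM, against 159 to 581 CPM in the other 8, so that results were also computed without them. In bulk libraries such as these, fewer cells expressing a gene and less RNA per cell cannot be told apart.

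Of the 10 receptor genes, 6 had enough counts to be tested (Chrna3, Chrna4, Chrnb2, Chrnb4, Chrm2 and Chrm3), while Chrna5, Chrna6, Chrna7 and Chrnb3 did not pass the filter on low counts. Per kilobase of exon (RPKM, the CPM divided by the exon length in kilobases), the order of mean levels over the 11 libraries was led by Chrna4 at 15.4, followed by Chrnb2 at 4.18, Chrna3 at 3.97, Chrm2 at 2.20 and Chrm3 at 1.28 RPKM. Chrnb4 came next at 0.239 RPKM, and Chrna5 (0.0752), Chrna7 (0.0532), Chrna6 (0.0166) and Chrnb3 (0.00976 RPKM) closed the order. Only the step from Chrna4 to Chrnb2 was larger than the spread over libraries, with Chrna4 the higher in 11 of 11 libraries and no overlap of their ranges. Chrnb2 exceeded Chrna3 in 7 of 11 libraries, Chrna3 exceeded Chrm2 in 9 of 11 and Chrm2 exceeded Chrm3 in 8 of 11, and these neighbours, like all further ones, had ranges that overlapped. The order of means depended on the nucleus, because in dLG Chrna3 (5.70 ± 2.06 RPKM, SD, n = 4) stood above Chrnb2 (4.73 ± 0.484) and Chrm3 (2.63 ± 1.12) above Chrm2 (2.40 ± 0.238), while both pairs stood the other way round in VPM and MGv.

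**Figure D1:**
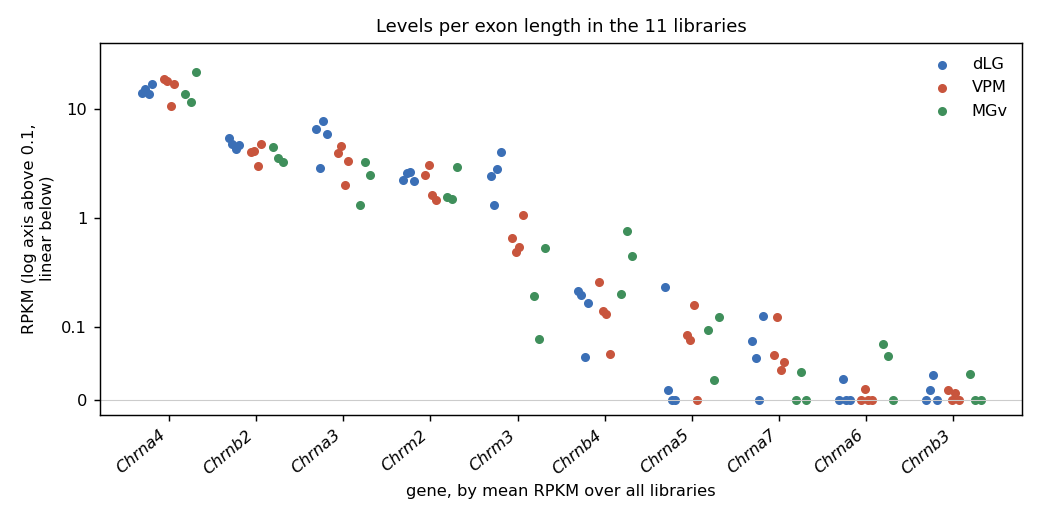
Level per exon length (RPKM, log axis above 0.1 and linear below) of the 10 receptor genes, ordered by their mean over all libraries, with 1 point per library (blue, dLG; red, VPM; green, MGv). Chrna4 lies above every other gene in the plot, and the last 4 genes reach 0 in at least 1 library.

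Chrna4 encodes the principal subunit of the high-affinity receptor and lies on chr2:181018380-181043546 (GRCm38, minus strand). Its level was 69.6, 75.7, 68.4 and 83.5 CPM in the dLG libraries, 92.6, 89.5, 52.8 and 83.7 CPM in VPM and 68.7, 57.4 and 108 CPM in MGv. The ranges of the 3 nuclei overlapped, and the dLG range lay inside those of VPM and MGv. No contrast passed the test, with a log2 fold change of -0.10 ± 0.20 (SE; 95% interval -0.54 to 0.34) between dLG and VPM, -0.07 ± 0.22 (-0.54 to 0.41) between dLG and MGv, and 0.03 ± 0.22 (-0.44 to 0.51) between VPM and MGv.

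Chrnb2, its partner subunit, lies on chr3:89746195-89764632 (GRCm38, minus strand). It was measured at 45.2, 39.3, 35.4 and 38.8 CPM in dLG, 33.9, 34.0, 24.7 and 39.9 CPM in VPM and 37.3, 29.3 and 27.4 CPM in MGv. All groups overlapped, and the log2 fold changes of 0.26 ± 0.17 (dLG over VPM), 0.34 ± 0.18 (dLG over MGv) and 0.08 ± 0.18 (VPM over MGv) had 95% intervals that included 0 and reached at most 0.73. Of the exon bases of Chrnb2, 16.3% are shared with Adar on the opposite strand, a gene with 607 to 1373 counts per library, and the setting of strand in the counting was not stated. Without strand, reads of the 2 genes in these bases cannot be told apart.

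Relative to each other and per exon length, Chrna4 exceeded Chrnb2 by a ratio of 3.15 ± 0.425 in dLG (SD, n = 4), 4.01 ± 0.553 in VPM (n = 4) and 4.30 ± 1.96 in MGv (n = 3). The range of this ratio in dLG (2.57 to 3.59) overlapped that in VPM (3.50 to 4.56) and that in MGv (3.07 to 6.56). The level was also summed over all nicotinic subunits, the 8 described here and the 8 other nicotinic genes named below. This sum overlapped among the nuclei, at 25.8 ± 1.91, 23.9 ± 5.23 and 22.5 ± 4.87 RPKM. Chrna3, Chrna4 and Chrnb2 together made up 97.9 ± 1.11%, 97.2 ± 1.00% and 95.9 ± 1.29% of it (dLG, VPM and MGv, in this order).

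Chrna3 and Chrnb4 are neighbours on chromosome 9, in a cluster with Chrna5. Chrna5 (chr9:54980880-55007779, GRCm38) is read from the plus strand, and Chrna3 (chr9:55010111-55026562) and Chrnb4 (chr9:55028154-55048779) from the minus strand, with 2331 bases between the first pair and 1591 bases between the second. The 250 bases before the starts of Chrna3 and Chrnb4, taken from RefSeq (GRCm38.p6, minus strand), are printed because these genes lie side by side and were found at very different levels. Capitals mark the letters GGGCGG, or CCGCCC for the other strand, the core of a site bound by Sp-family factors.
Chrna3 (chr9:55026563-55026812): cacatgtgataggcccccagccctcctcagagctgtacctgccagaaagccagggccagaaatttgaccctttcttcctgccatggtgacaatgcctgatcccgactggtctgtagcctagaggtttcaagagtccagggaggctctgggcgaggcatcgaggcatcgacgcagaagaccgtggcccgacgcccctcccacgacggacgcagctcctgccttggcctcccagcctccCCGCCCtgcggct
Chrnb4 (chr9:55048545-55048794): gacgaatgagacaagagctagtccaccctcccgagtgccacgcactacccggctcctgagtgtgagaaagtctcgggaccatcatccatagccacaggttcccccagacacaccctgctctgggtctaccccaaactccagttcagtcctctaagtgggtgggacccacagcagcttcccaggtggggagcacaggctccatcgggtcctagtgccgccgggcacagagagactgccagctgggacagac
The window of Chrna3 held 1 match and that of Chrnb4 none, and 32.7% of the 32851 promoter windows of this length held at least 1 match. Both were rich in GC (63.2% and 61.2%, against a median of 52.4% over all windows) and held 13 and 8 CpG pairs (median 6). A match of letters is a description of the window and not a site of binding. Most of the window of Chrnb4 lies inside the gene as drawn by GENCODE, whose start (55048779) lies farther upstream than that of RefSeq.

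In the libraries, Chrna3 was at 34.0, 14.9, 40.4 and 30.8 CPM in dLG, 20.8, 23.7, 10.5 and 17.5 CPM in VPM and 6.91, 17.2 and 13.1 CPM in MGv. Thus 3 of the 4 dLG libraries lay above every VPM and MGv library, and the remaining one, dLG replicate 2, fell among them. The lowest library of each nucleus was the one with low Hspa8, which held for 8.78% of all genes tested and for no other receptor gene tested. Chrna3 was higher in dLG than in MGv (log2 fold change 1.28 ± 0.37, 95% interval 0.47 to 2.08, adjusted p = 0.0403, edgeR's quasi-likelihood test with Benjamini-Hochberg adjustment). This call was lost without dLG replicate 3 (adjusted p = 0.107), MGv replicate 1 (0.148) or MGv replicate 3 (0.109), and with the replicate number as a block (0.108).

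Between dLG and VPM, the log2 fold change of Chrna3 was 0.72 ± 0.33 (95% interval 0.01 to 1.43) and did not pass (adjusted p = 0.235). Without the 3 libraries of low Hspa8 the value was 0.76 and passed (adjusted p = 0.0195), and without dLG replicate 2 alone it was 0.93 (0.0778). VPM and MGv overlapped, with a log2 fold change of 0.55 ± 0.37 (-0.24 to 1.34, adjusted p = 0.362). Set against Chrna4 in the same library and per exon length, Chrna3 stood at 0.392 ± 0.161 of the Chrna4 level in dLG (n = 4), 0.214 ± 0.0274 in VPM (n = 4) and 0.166 ± 0.104 in MGv (SD, n = 3).

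Chrnb4 was near the floor in most libraries. It was counted 13, 17, 4 and 13 times in dLG (0.791, 0.730, 0.218 and 0.620 CPM), 21, 12, 8 and 5 times in VPM (0.973, 0.519, 0.496 and 0.238 CPM) and 10, 32 and 17 times in MGv (0.751, 2.81 and 1.65 CPM). MGv replicates 2 and 3 lay above all other libraries and MGv replicate 1 among them. The log2 fold changes of -1.54 ± 0.63 (dLG against MGv, adjusted p = 0.146) and -1.62 ± 0.63 (VPM against MGv, 0.111) did not pass by edgeR's quasi-likelihood test, though their 95% intervals (-2.90 to -0.18 and -2.98 to -0.26) did not include 0. DESeq2's Wald test gave an adjusted p of 0.0730 for VPM against MGv. For dLG against VPM the value was 0.08 ± 0.60 (-1.21 to 1.37).

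**Figure D2:**
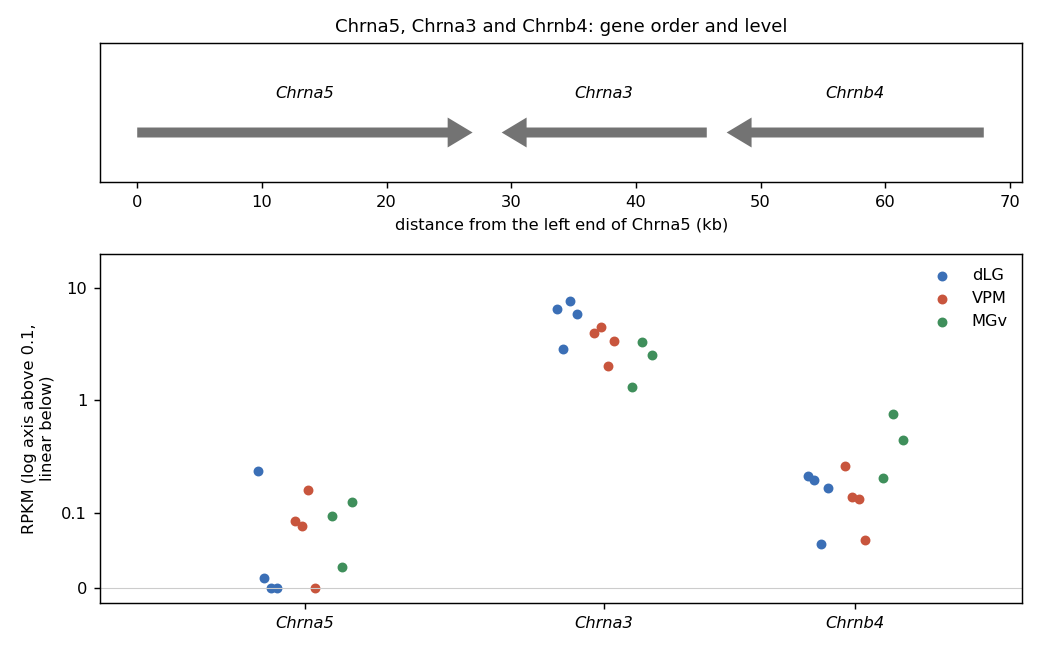
Order and direction of Chrna5, Chrna3 and Chrnb4 (arrows, distance in kb from the left end of Chrna5) above their level per exon length in each library (RPKM, log axis above 0.1 and linear below; blue, dLG; red, VPM; green, MGv). Chrna3 lies above Chrnb4 in every library, and the gap is smallest in MGv, where their ratio was 4.33 to 6.51.

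Per exon length, the ratio of Chrna3 to Chrnb4 was 14.4 to 131 in dLG, 15.0 to 52.0 in VPM and 4.33 to 6.51 in MGv, so that all MGv libraries lay below all others. These ratios rest on 4 to 32 counts of Chrnb4 per library, and the 131, in dLG replicate 3, on 4 counts. The levels of 23.8% (dLG against MGv) and 25.1% (VPM against MGv) of all genes tested were without overlap. These shares are for levels of single genes, and none was computed for ratios of 2 genes. Chrna3 and Chrnb4 are abundant in the medial habenula, another part of the diencephalon. Tac2, a defining habenular peptide gene, had 0 to 1 counts and Gpr151, a habenular receptor, 0 to 5 counts in each library. The summed level of the 8 habenular markers was 28.2 to 28.8 CPM in dLG, 34.5 to 72.4 CPM in VPM and 42.5 to 81.5 CPM in MGv, with Nwd2 alone at 12.9 to 65.4 CPM. Without Nwd2 the sum of the other 7 was 13.5 to 15.5 CPM in dLG, 4.77 to 7.05 CPM in VPM and 10.5 to 16.8 CPM in MGv, so that dLG was below VPM with Nwd2 and above it without. Most of this sum came from Tac1 and Slc5a7, which were counted in every library. Tac1 was at 5.61 to 8.46, 1.34 to 3.16 and 7.72 to 15.6 CPM in dLG, VPM and MGv. Slc5a7 was at 4.81 to 8.93, 1.86 to 3.59 and 1.07 to 2.40 CPM in the same order. The part of habenular cells in the levels of Chrna3 and Chrnb4 was not tested.

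The accessory subunit gene Chrna5 was counted 12, 1, 0 and 0 times in dLG, 6, 6, 8 and 0 times in VPM and 4, 1 and 4 times in MGv. Apart from dLG replicate 1, no library held more than 8 counts, and the nuclei overlapped. Chrna7 (chr7:63098692-63212569, GRCm38, minus strand), whose subunit forms a calcium-permeable channel alone, had 6, 6, 0 and 12 counts in dLG, 6, 13, 3 and 5 in VPM and 0, 2 and 0 in MGv. The VPM and MGv libraries were not separated above detection, since the lowest VPM library (3 counts, 0.186 CPM) lay below the floors of the MGv libraries (0.225 to 0.292 CPM), and no test was made at these counts.

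Chrna6 and Chrnb3 lie 3481 bases apart on chromosome 8 and encode subunits known from dopaminergic neurons and retinal ganglion cells. Chrna6 (chr8:27403212-27413944) reached at most 3 counts and Chrnb3 (chr8:27368711-27399730) at most 4 counts in any library. Most libraries had 0 counts of either gene, and levels below the floor of 3 counts cannot be told from 0 at this depth.

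Chrm2 lies on chr6:36388084-36528414 (GRCm38, plus strand) and encodes the Gi/o-coupled receptor. It stood at 13.5, 15.6, 15.9 and 13.1 CPM in dLG, 15.1, 18.6, 9.74 and 8.89 CPM in VPM and 9.47, 9.04 and 17.5 CPM in MGv. The dLG libraries were close together and lay within the ranges of both other nuclei. The log2 fold changes were 0.15 ± 0.27 (95% interval -0.43 to 0.72) for dLG over VPM, 0.28 ± 0.29 (-0.35 to 0.91) for dLG over MGv and 0.13 ± 0.29 (-0.50 to 0.76) for VPM against MGv, and none passed.

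Chrm3, the gene of the Gq-coupled receptor, differed most among the receptor genes tested. It lies on chr13:9875486-10360847 (GRCm38, minus strand), and no exon of another gene overlaps it. The 250 bases before its start (RefSeq, GRCm38.p6, minus strand) are printed as the promoter of the receptor gene with the largest difference and held no match to the letters above, 61.2% GC and 10 CpG pairs. This window also reaches into the gene as drawn by GENCODE, which starts at 10360847.
Chrm3 (chr13:10360804-10361053): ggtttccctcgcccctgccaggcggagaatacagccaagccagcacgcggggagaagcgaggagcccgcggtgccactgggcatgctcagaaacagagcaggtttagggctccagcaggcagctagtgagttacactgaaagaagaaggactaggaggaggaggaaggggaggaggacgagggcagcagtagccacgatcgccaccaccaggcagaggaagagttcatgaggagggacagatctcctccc

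The level of Chrm3 was 15.1, 8.12, 17.5 and 25.1 CPM in dLG, 4.08, 3.07, 3.41 and 6.71 CPM in VPM and 1.20, 0.527 and 3.31 CPM in MGv. All dLG libraries lay above all VPM and MGv libraries, and VPM and MGv overlapped through VPM replicate 2 and MGv replicate 3. Averaged over libraries, dLG stood at 16.4 ± 6.98 CPM (SD, n = 4), VPM at 4.32 ± 1.65 CPM (n = 4) and MGv at 1.68 ± 1.45 CPM (n = 3). The dLG level was above that in VPM (log2 fold change 1.93 ± 0.44, 95% interval 0.99 to 2.86, adjusted p = 0.0148) and that in MGv (3.31 ± 0.55, 2.14 to 4.48, adjusted p = 0.00115, edgeR's quasi-likelihood test with Benjamini-Hochberg adjustment).

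Both calls held in all 21 alternatives in which Chrm3 was tested, with adjusted p from 9.95e-09 to 0.0576 for dLG against VPM and from 2.73e-17 to 0.00953 for dLG against MGv. For VPM against MGv the log2 fold change of 1.39 ± 0.53 (0.26 to 2.52) missed the threshold of 0.1 with an adjusted p of 0.103. It passed in 7 of 21 alternatives, among them DESeq2 (0.0315) and the fit without MGv replicate 3 (0.0242). Per exon length, Chrm3 exceeded Chrm2 in some dLG libraries, with a ratio of 0.505 to 1.85 (mean 1.13), whereas it was below Chrm2 in every VPM library (0.160 to 0.730) and every MGv library (0.0564 to 0.183).

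**Figure D3:**
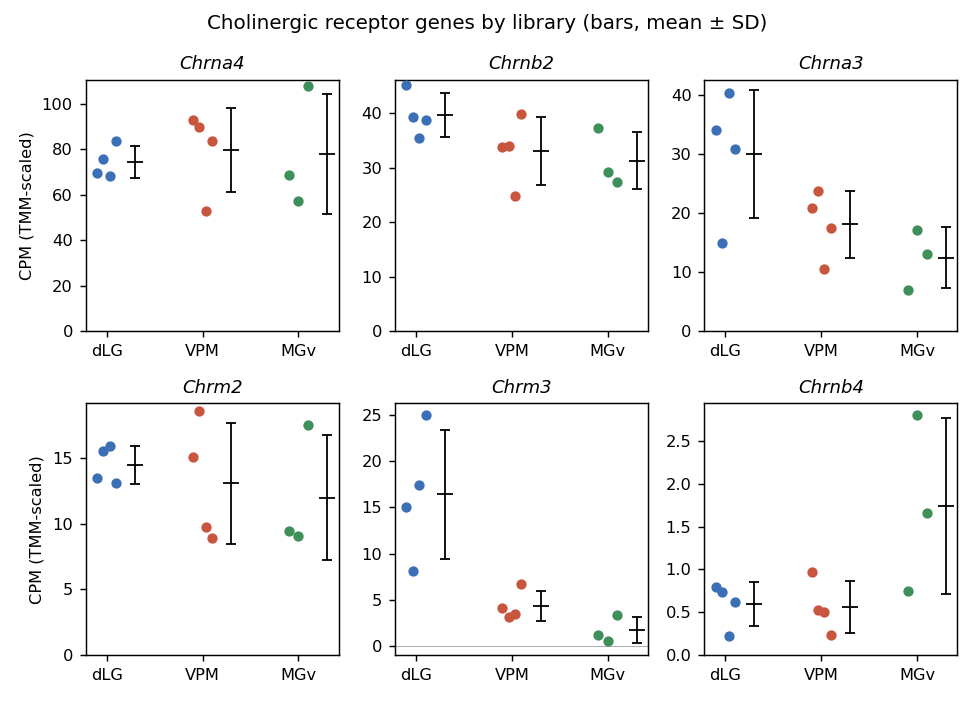
Level in CPM (linear axes, scaled by TMM) of the 6 receptor genes tested, with 1 point per library in dLG (blue, n = 4), VPM (red, n = 4) and MGv (green, n = 3) and the mean ± SD in black. Only for Chrm3 do all dLG libraries lie above all others, while Chrna4, Chrnb2 and Chrm2 overlap among the nuclei.

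Other quantities moved between the same libraries. The summed level of 10 dissociation-response genes was 380 to 561 CPM in dLG, 210 to 283 CPM in VPM and 506 to 657 CPM in MGv, with all dLG libraries above all VPM libraries and MGv reaching higher still. Of the 5 oligodendrocyte-lineage markers, Mbp was at 5.25 to 20.1 CPM in dLG and 62.4 to 71.5 CPM in MGv and made up most of the summed level (7.30 to 21.6 and 65.3 to 74.2 CPM), with Sox10 at 0 to 1 counts. In VPM, Mbp was at 25.0 to 30.7 CPM. The 7 astrocyte markers summed to 57.0 to 140 CPM in dLG, 86.8 to 151 CPM in VPM and 76.2 to 192 CPM in MGv, with overlap, but single genes were apart: Slc1a3 was at 1.10 to 17.9 CPM in dLG and 45.5 to 90.3 CPM in MGv, and Aldoc at 2.10 to 11.8 CPM in dLG, 27.9 to 46.6 CPM in VPM and 16.6 to 19.5 CPM in MGv. The 3 haemoglobin genes summed to 512 CPM in dLG replicate 3, without which Chrna3 (dLG against MGv) and Slc5a7 (dLG against VPM) lost their calls, and to at most 11.7 CPM in any other library. The part of these cells and genes in the differences of Chrm3, Chrna3 and Slc5a7, and that of the lower depth in MGv, was not tested.

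Across the 6 receptor genes tested, 1 passed for dLG against VPM (Chrm3), 2 for dLG against MGv (Chrna3 and Chrm3) and 0 for VPM against MGv, and all that passed were higher in dLG. Of all 15907 genes tested, 10.7% passed between dLG and VPM (4.97% with dLG and 5.74% with VPM the higher), 16.1% between dLG and MGv (8.61% higher in dLG and 7.49% in MGv) and 19% for VPM against MGv (10.4% higher in VPM and 8.56% in MGv). Beside the 0 for VPM against MGv by edgeR's quasi-likelihood test, 2 receptor genes (Chrm3 and Chrnb4) had an unadjusted p under 0.05, DESeq2 called 2 and limma voom 0. The median log2 fold change of the 6 genes was 0.20, 0.31 and 0.10 in the 3 contrasts, against 0.0048, 0.015 and 0.022 over all genes. Groups without overlap were seen for Chrm3 alone in both contrasts of dLG and for none between VPM and MGv, where 14.6%, 23.8% and 25.1% of all genes had no overlap (dLG against VPM, against MGv, and VPM against MGv).

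**Figure D4:**
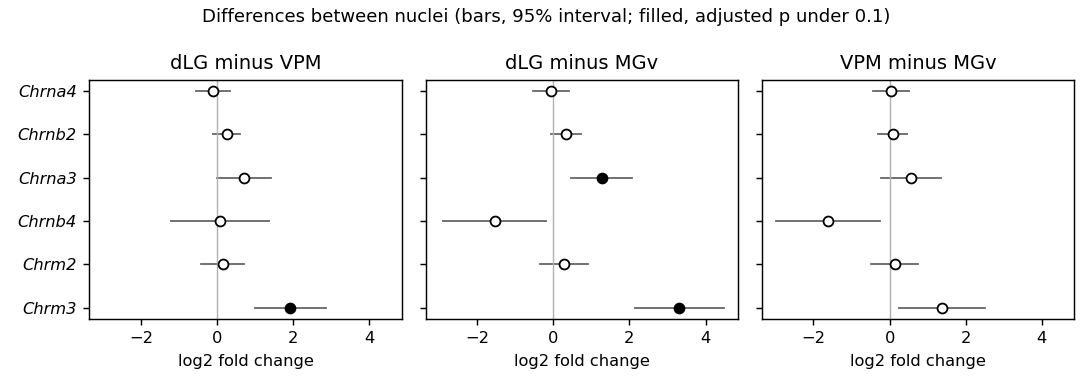
Log2 fold change of the 6 receptor genes tested in the 3 contrasts (points, with bars for the 95% interval; filled points have an adjusted p under 0.1). Chrm3 is filled in both contrasts of dLG, Chrna3 against MGv only, and Chrnb4 lies to the left of 0 in both contrasts with MGv without passing.

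The genes whose log2 CPM followed the receptor genes most closely were sought for the 3 with the widest range of nucleus means, among 8878 tested genes with a mean of at least 10 CPM. Chrm3 was most like Zfp608 (Pearson's r = 0.961 over 11 libraries) and Dixdc1 (0.955). Zfp608 was at 44.6 ± 5.81, 23.9 ± 5.16 and 14.9 ± 6.35 CPM in dLG, VPM and MGv. For Chrna3 the closest were 1600014C10Rik (0.961) and Acaa1a (0.952), and for Chrnb4 they were Mgat1 (0.882) and Pspc1 (0.881). These are the highest of many correlations over libraries that share the same groups and depths, and are given as a description.

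Of the 11 other cholinergic receptor genes, only Chrna1, the muscle alpha subunit, had enough counts to be tested. It was at 0.286 to 0.548 CPM in dLG, 0.186 to 0.856 CPM in VPM and 0.0751 to 1.17 CPM in MGv and passed in no contrast. The muscarinic receptor gene Chrm4 had 0 counts in every library, Chrm5 at most 4, and Chrm1 at most 1 except for 12 counts in MGv replicate 3. Of the remaining nicotinic genes, Chrna9 reached 9 counts in 1 library, Chrna10 and Chrne 5, Chrna2 4 and Chrnb1 and Chrng 2 and 1, and Chrnd was at 0 throughout.

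Genes that make, move and break down acetylcholine numbered 8, of which 5 were tested and 2, 3 and 1 passed for dLG against VPM, against MGv, and for VPM against MGv (median log2 fold change 0.13, 1.71 and 0.46 over those tested). Over all genes tested, 10.7%, 16.1% and 19% passed in these contrasts, and 14.6%, 23.8% and 25.1% had no overlap. The same shares stand beside the genes and lists that follow. Chat, the synthetic enzyme that defines cholinergic neurons, had 0 to 2 counts per library and Slc18a3, the vesicular transporter, 0 to 15 counts. Slc5a7, the choline transporter of cholinergic terminals, was at 4.81 to 8.93 CPM in dLG, 1.86 to 3.59 CPM in VPM and 1.07 to 2.40 CPM in MGv, and dLG did not overlap with the other nuclei. The dLG level was the higher one against VPM (log2 fold change 1.25 ± 0.33, adjusted p = 0.0322) and MGv (1.71 ± 0.38, 0.00843, edgeR's quasi-likelihood test with Benjamini-Hochberg adjustment), of which the former was lost without dLG replicate 3 (0.105).

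Ache, acetylcholinesterase, went the other way. It was at 65.5 to 88.0 CPM in dLG, 90.0 to 168 CPM in VPM and 160 to 185 CPM in MGv, so that all dLG libraries were below all others. The log2 fold changes were -0.70 ± 0.17 for dLG against VPM (adjusted p = 0.0219) and -1.10 ± 0.18 for dLG against MGv (adjusted p = 0.00112), and both held in all 22 alternatives. Colq, which anchors acetylcholinesterase in the matrix, had 3 to 14 counts in dLG, 4 to 12 in VPM and 0 in all MGv libraries and passed in both contrasts with MGv. Its mean was 1.80-fold (dLG) and 1.65-fold (VPM) the mean floor of the MGv libraries, 0.260 CPM. The lowest libraries of dLG (3 counts, 0.129 CPM) and VPM (4 counts, 0.190 CPM) lay below the MGv floors of 0.225 to 0.292 CPM. The nuclei were therefore not separated above detection in every library.

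Among 11 chaperones and Ly6 proteins that act on nicotinic receptors, 9 were tested and 2, 3 and 3 passed in the same order of contrasts (median log2 fold change -0.04, -0.06 and 0.0048). Ric3 and Tmem35a, chaperones needed for receptor assembly, were at 42.6 to 61.7 and 59.5 to 104 CPM and passed in no contrast. Lypd6, a Ly6 protein that modulates nicotinic currents, was at 5.54, 5.67, 9.53 and 5.39 CPM in dLG, 15.6, 19.3, 10.4 and 8.56 CPM in VPM and 0.676, 1.05 and 0.583 CPM in MGv. MGv was far below both other nuclei, with log2 fold changes of 3.07 ± 0.40 for dLG against MGv (adjusted p = 0.000192) and 4.11 ± 0.41 for VPM against MGv (adjusted p = 2.30e-05, edgeR's quasi-likelihood test with Benjamini-Hochberg adjustment). The lower level in dLG than in VPM (-1.05 ± 0.29, adjusted p = 0.0457) was lost without dLG replicate 1 (0.123) or 4 (0.128) and without VPM replicate 1 (0.120) or 2 (0.175).

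Lypd6b, its close relative, was at 12.4 to 28.8 CPM in dLG, 12.3 to 22.1 CPM in VPM and 4.65 to 6.03 CPM in MGv. MGv was again lower than dLG (1.94 ± 0.30, adjusted p = 0.000768) and VPM (1.81 ± 0.30, adjusted p = 0.00140), with no overlap. Lynx1, which damps nicotinic receptors of alpha4 and beta2 subunits, was at 4.20 to 7.00, 9.92 to 13.5 and 0.292 to 3.23 CPM in dLG, VPM and MGv, and passed for VPM against MGv (2.37 ± 0.48, adjusted p = 0.00547). Ly6e was lower in dLG (12.9 to 17.7 CPM) than in VPM (29.3 to 33.3 CPM) and MGv (21.8 to 40.6 CPM), by -0.98 ± 0.19 (adjusted p = 0.00511) and -0.98 ± 0.20 (adjusted p = 0.00509) on the log2 scale.

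**Figure D5:**
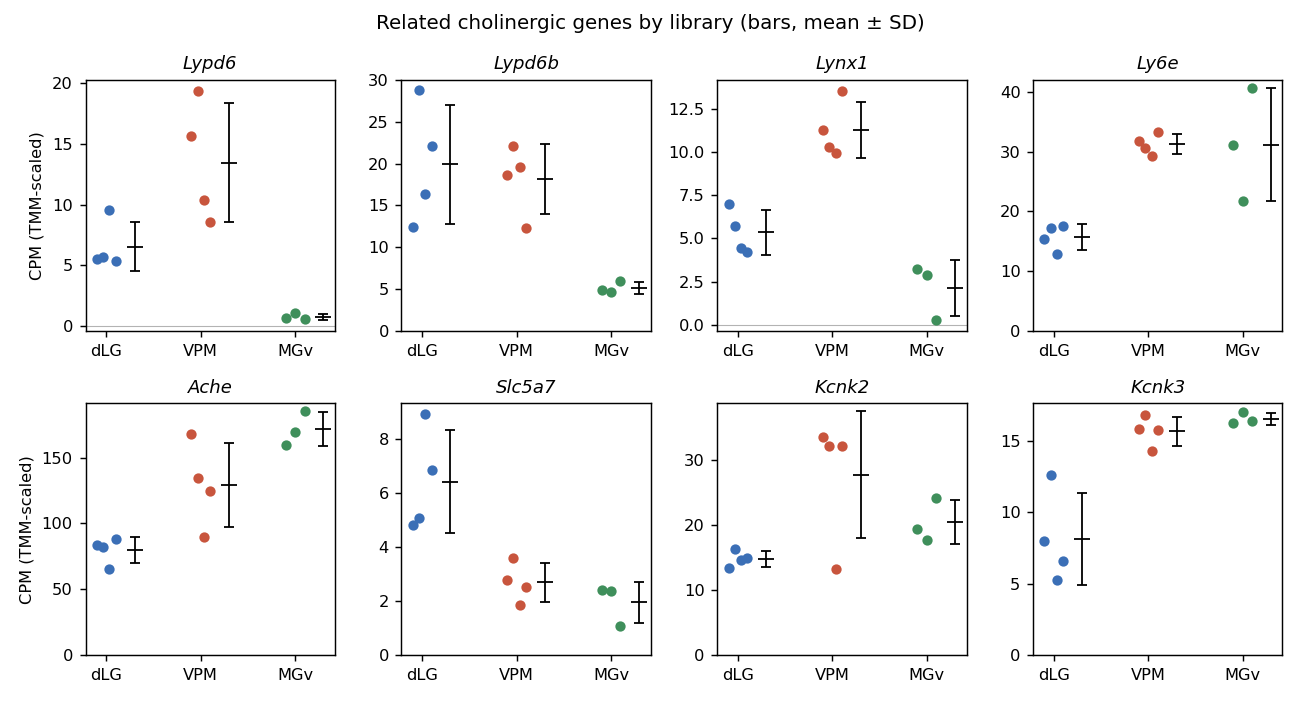
Level in CPM (linear axes, scaled by TMM) of 8 genes related to the receptors, with 1 point per library in dLG (blue), VPM (red) and MGv (green) and the mean ± SD in black. Lypd6 and Lypd6b are low in all MGv libraries, Ly6e, Ache and Kcnk3 are lower in dLG, and Slc5a7 is higher in dLG.

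Downstream of the Gq-coupled receptor, 9 of 10 genes were tested, and 1, 1 and 2 passed in the 3 contrasts (median log2 fold change -0.23, -0.32 and -0.22). Plcb1, a phospholipase activated by Gq, was at 5.97 to 8.68 CPM in dLG, 6.82 to 12.8 CPM in VPM and 35.9 to 72.4 CPM in MGv. It was lower in dLG (-2.92 ± 0.27, adjusted p = 1.18e-05) and VPM (-2.37 ± 0.26, adjusted p = 5.49e-05) than in MGv. Prkca, a protein kinase C, was higher in dLG than in VPM (1.17 ± 0.22, adjusted p = 0.00434) and lower in VPM than in MGv (-1.49 ± 0.23, adjusted p = 0.000793).

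Of 5 potassium channels that muscarinic receptors are known to close, all were tested, and 3 were lower in dLG than in VPM, 1 was lower in dLG than in MGv and 0 passed for VPM against MGv by edgeR's quasi-likelihood test (0 also had an unadjusted p under 0.05). Kcnk3, a leak channel of the TASK family, was at 5.23 to 12.6 CPM in dLG, 14.3 to 16.8 CPM in VPM and 16.2 to 17.0 CPM in MGv. Its log2 fold change was -0.95 ± 0.23 for dLG against VPM (adjusted p = 0.0243) and -1.03 ± 0.25 for dLG against MGv (adjusted p = 0.0156), and both held in all 22 alternatives. Kcnk2, a leak channel of the TREK family, passed for dLG against VPM (-0.91 ± 0.25, adjusted p = 0.0396) but not without dLG replicate 1 (0.106), VPM replicate 1 (0.112) or VPM replicate 2 (0.116), nor with the replicate block (0.101). Kcnk9, another TASK channel with at most 5 counts in any dLG library, passed (-3.06 ± 0.93, adjusted p = 0.0624) but not without any of dLG replicates 1, 3 and 4 and VPM replicates 1, 2 and 4 (0.111 to 0.163) or with the block (0.134). For both Kcnk2 and Kcnk9, dLG and VPM overlapped through VPM replicate 3. In that library Kcnk2 was at 13.2 CPM, beside 13.3 to 16.3 CPM in dLG. Kcnk9 was at 0.124 CPM there, beside 0.0477 to 0.215 CPM in dLG. Kcnk2 shares 12.2% of its exon bases with an antisense gene. Over the 5 channels, the median log2 fold change was -0.95, -0.46 and 0.45 in the 3 contrasts.

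All 11 genes of Gi/o signalling and GIRK channels were tested, and 3, 3 and 7 passed in the 3 contrasts (median log2 fold change -0.22, 0.15 and 0.14). Rgs4, which shortens Gi/o and Gq signals, was higher in VPM (183 to 327 CPM) than in dLG (88.5 to 168 CPM) and MGv (67.0 to 115 CPM), with log2 fold changes of -1.28 ± 0.24 for dLG against VPM (adjusted p = 0.00485) and 1.67 ± 0.27 for VPM against MGv (adjusted p = 0.00113). Rgs2, which acts mainly on Gq, was higher in MGv (245 to 299 CPM) than in dLG (130 to 179 CPM, -0.82 ± 0.15, adjusted p = 0.00236) and VPM (91.1 to 120 CPM, -1.27 ± 0.15, adjusted p = 8.64e-05). Rgs8 was higher in dLG than in VPM (0.70 ± 0.15, adjusted p = 0.0116). Kcnj3, a GIRK subunit, was lower in MGv (0.376, 1.40 and 4.57 CPM) than in VPM (7.32 to 11.0 CPM, 2.09 ± 0.56, adjusted p = 0.0245), and 31.1% of its exon bases are shared with a long noncoding gene on the opposite strand that had 0 to 15 counts. Without MGv replicate 3, the MGv library with the most Kcnj3, its log2 fold change was 3.33 (adjusted p = 0.00160).

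In the same list, Gnai2 was lower in dLG (-1.13 ± 0.23, adjusted p = 0.00537) and in VPM (-0.78 ± 0.23, 0.0418) than in MGv by edgeR's quasi-likelihood test. Changes of smaller size passed for Rgs2 between dLG and VPM (0.44 ± 0.14, adjusted p = 0.0770), Rgs8 between dLG and MGv (0.57 ± 0.17, 0.0419), and Gnai1 (0.55 ± 0.21, 0.0991), Gnai3 (0.46 ± 0.15, 0.0596) and Kcnj6 (-0.73 ± 0.25, 0.0657) between VPM and MGv. The calls of Rgs4, of Rgs2 against MGv, of Rgs8 for dLG against VPM and of Gnai2 for dLG against MGv held in all 22 alternatives. That of Kcnj3 held in all 21 that fitted it. The other calls of this paragraph were each lost when certain single libraries were left out. Gnai2 for VPM against MGv was lost without VPM replicate 2 (0.103) or MGv replicate 3 (0.258), Gnai3 without the same libraries (0.121 and 0.216), and Kcnj6 without VPM replicate 4 (0.119), MGv replicate 2 (0.144) or MGv replicate 3 (0.215). Rgs8 for dLG against MGv was lost without dLG replicate 4 (0.105), MGv replicate 1 (0.123) or MGv replicate 2 (0.135), Gnai1 without any library of VPM or MGv (0.107 to 0.290), and Rgs2 without any of dLG replicates 1 to 3, VPM replicates 1, 2 and 4 and MGv replicates 1 and 2 (0.101 to 0.193).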

How the data were processed

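Nuclei were dissected from newborn reporter mice, and sorted neurons were profiled by single-end RNA-seq with reads of 50 bases after cDNA amplification with a SMARTer low-input kit. The deposited values are raw counts per gene, which the authors made with Trim Galore 0.6.1, cutadapt 2.3, STAR 2.7.0d, SAMtools 1.9 and featureCounts (Subread 1.6.4) on GRCm38 with Ensembl annotation, per the submitters' processing notes and the study's methods. The treatment of strand and of reads with several alignments is not given in the sources used here.

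Groups and replicate numbers came from the labels. Symbols, positions and exon lengths came from GENCODE M21 (54723 of 54752 identifiers matched), and promoter windows from RefSeq. No 2 libraries of a nucleus agreed within sampling noise (chi-square per degree of freedom 12.8 to 115 in 15 pairs).

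Counts as deposited were tested with edgeR 4.0.16 (R 4.3.3) by the quasi-likelihood test, two-sided, in a single model of all 11 libraries with 3 group means, after filterByExpr (15907 genes) and TMM scaling, with Benjamini-Hochberg adjustment over all genes and a threshold of 0.1. The biological coefficient of variation common to all genes was 28.2%. The standard error of a log2 fold change is its size over the square root of its F statistic. A prior count of 2 was added for log2 CPM, and RPKM values are the CPM per kilobase of the union of exons. Reads amplified without molecular identifiers are not independent molecules, so the floor of 3 counts covers counting error only. The scripts were tested on simulated data. The alternatives were DESeq2 1.42.0, limma voom 3.58.1, 2 other scalings, no filter, a filter of 10 counts or more per library, an adjusted p under 0.05, the replicate block, a term for or the removal of the 3 libraries with low Hspa8, only the nuclei compared, and each library left out in turn. All 10 receptor genes are named, as are genes of the related lists that passed in at least 1 contrast. A gene of the potassium channel list is not reported here and was left out of its counts. The receptor genes, related lists and marker lists were chosen with earlier results of these data known.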

Additional observations from a re-analysis of the deposited data

How the results depend on the processing

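Of the 22 alternatives, 11 left out 1 library. Replicate numbers are shared by the nuclei, but same-numbered libraries did not deviate together on average (10 pairs, r from -0.2029 to 0.4832, mean 0.0155). The highest r was that of dLG and VPM replicate 4, and 4 of 11 libraries correlated best with their own number. The libraries of low Hspa8, which differ in number, correlated with each other at 0.2304 to 0.2682. The fit with the replicate block was kept as an alternative only. It called 1464, 2169 and 2695 genes for dLG against VPM, against MGv, and for VPM against MGv (1704, 2562 and 3016 without it). It called 1, 1 and 1 receptor genes in place of 1, 2 and 0.

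For dLG against VPM, 2618 genes were called without the 3 libraries of low Hspa8, and 1093 to 2223 with 1 library left out, the lowest without VPM replicate 2 (1093) and VPM replicate 1 (1101). With 1 library left out, 1886 to 3300 genes were called for dLG against MGv and 2024 to 3235 for VPM against MGv. Receptor genes called for dLG against VPM were 2 with no count filter, with the term for low Hspa8 and without those 3 libraries, 0 with at least 10 counts in every library, where Chrm3 was not tested, and 1 to 2 with 1 library left out (2 without dLG replicate 2). For dLG against MGv they were 1 with at least 10 counts in every library, again without Chrm3, 4 without the 3 libraries (also Chrnb2, adjusted p = 0.0830, and Chrnb4, 0.0961), and 1 to 2 with 1 library left out. For VPM against MGv they were 2 with DESeq2, 1 with no count filter, 2 with the term for low Hspa8, and 0 to 1 with 1 library left out (1 without dLG replicates 2 or 3, VPM replicates 1 or 3 and MGv replicates 1 or 3). Except for the filter of 10 counts, which removed Chrm3 from the test, the cause of these changes was not tested.

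In 19 fits of receptor genes the sign reversed, in none of a gene that had passed. Without the 3 libraries, Chrnb4 was at -0.086 and Chrm2 at -0.00052 for dLG against VPM. Chrna4 for VPM against MGv was at -0.015 with total counts, -0.0055 with the replicate block and -0.0085 with the term for low Hspa8. With 1 library left out, the log2 fold changes that changed sign ranged from -0.18 to 0.48 for Chrnb4 and -0.0050 to 0.37 for Chrm2 between dLG and VPM, from -0.25 to 0.23 for Chrna4 between dLG and MGv, and from -0.14 to 0.34 for Chrna4, -0.023 to 0.23 for Chrnb2 and -0.091 to 0.51 for Chrm2 between VPM and MGv. Of 35 calls in related genes, 25 held in all alternatives that fitted them, 34 held without the 3 libraries, and none reversed. Depth limits what can be said of genes of few counts, such as Chrnb4 and the 4 receptor genes that were not tested.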
